A study of Mus musculus with 10 samples.

Results

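The phagocyte NADPH oxidase was described here through 6 genes, Cybb, Cyba, Ncf1, Ncf4, Rac1 and Rac2, chosen by name as subunits and small GTPases of the enzyme. All 6 are among the 22064 genes listed for the sorted immune cells and among the 19333 genes of the comparison of cultured oligodendrocyte precursor cells (OPCs), the cells that give rise to myelin-forming oligodendrocytes. The series holds 10 mouse RNA-sequencing libraries. Of these, 3 are OPC cultures from Olig2-Cre:Apc-fl/fl mice, in which Cre under Olig2 control removes the floxed Apc alleles, and 3 are OPC cultures from Apc-fl/fl littermates without Cre, called wild type here; all were immunopanned and kept for 3 days with PDGFAA. A further 4 libraries were made from spinal cord cells sorted by flow cytometry at day 18 of EAE, the mouse model of multiple sclerosis, and all of these mice were Pdgfra-CreER:Apc-fl/fl. One of them is labelled Th1 (CD4+ cells), and 3 are labelled cytotoxic macrophage (CD11b+, Gr-1+ and NK1.1+ cells). The labels give no age, no tamoxifen dose and no number of animals behind a library. The sorted cells have no control genotype, so they speak to cell types and not to Apc.

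The phagocyte oxidase carries electrons from NADPH across a membrane onto oxygen and so makes superoxide, the source of the oxidative burst. Its core is a heterodimer of gp91phox, encoded by Cybb, and p22phox, encoded by Cyba. It stays silent until cytosolic subunits, among them p47phox (Ncf1) and p40phox (Ncf4), dock onto it together with a GTP-bound Rac protein. Neutrophils, monocytes, macrophages and microglia are its best-known users, and loss of Cybb, Cyba, Ncf1 or Ncf4 in humans causes chronic granulomatous disease.

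The library labelled Th1 had 3051730 estimated reads in all and the macrophage libraries had 23174908, 23564215 and 23474168. Whether the macrophage libraries come from separate animals is not stated, so every p and SD covers the spread of these 3 libraries alone, and that spread may be technical. Their sum over 13 neutrophil marker genes was 434052 to 437135 TPM (length-corrected transcript abundance scaled to a common total), against 33893 to 34477 TPM for 15 macrophage and monocyte markers. Single genes dominated both sums, S100a8 with 308610 to 312567 TPM and Lyz2 with 22561 to 22805 TPM. The neutrophil surface gene Ly6g stood at 727 to 754 TPM. Of the macrophage and monocyte markers, Ly6c2 stood at 6216 to 6537 TPM and Plac8 at 4634 to 4672 TPM. The sums do not measure shares of cells. The label of these libraries is therefore used below as their name, not as that of a cell type. In the library labelled Th1, 9 of 11 listed T cell and Th1 markers, Cd3e, Cd4, Tbx21 and Ifng among them, had no read, while Lck had 422 reads and Thy1 had 2073. The 13 neutrophil markers summed to 25190 TPM in this library and the 15 macrophage and monocyte markers to 12398 TPM. Its listed T cell and Th1 markers summed to 470 TPM. For these reasons the text writes of the library labelled Th1, and which cells a transcript came from was not tested. In bulk RNA, fewer cells of a type and less RNA per cell cannot be told apart.

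All 6 genes were transcribed in the cells sorted as cytotoxic macrophages, over a range between 24.2 and 1626 TPM. Cyba, the stabilising partner of gp91phox, was the highest, at 1586.91, 1655.20 and 1636.22 TPM in the macrophage libraries (mean 1626 ± 35.2, SD, n = 3). It ranked 79th to 83rd among 13489 to 13565 genes above 0 TPM. Cybb, the catalytic subunit, stood at 35.87, 36.06 and 36.00 TPM (mean 36.0 ± 0.0971, SD, n = 3). Transcripts of the membrane partners were unequal, with 45.2 ± 0.859 (SD, n = 3) Cyba per Cybb by TPM (5.46 by reads without the length correction), although the proteins pair in equal numbers.

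Of the genes for cytosolic subunits, Ncf4, whose product p40phox binds phosphoinositides on phagosomes, stood at 153.91, 148.70 and 149.34 TPM (mean 150.65 ± 2.84, SD, n = 3). Ncf1, whose phosphorylated product carries the complex to the membrane, was the lowest of the 6 genes at 24.20, 23.96 and 24.42 TPM (mean 24.2 ± 0.230, SD, n = 3). Within each library Ncf4 exceeded Ncf1 by a TPM ratio of 6.23 ± 0.124 (SD, n = 3), or 2.74 by reads without the length correction.

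Of the GTPases, Rac2, the form restricted to blood cells, stood at 251.65, 279.21 and 271.50 TPM (mean 267 ± 14.2, SD, n = 3), and the widely expressed Rac1 at 89.04, 89.55 and 89.36 TPM (mean 89.3 ± 0.258, SD, n = 3). Rac2 made up 73.8 to 75.6% of the summed TPM of Rac1, Rac2 and Rac3 in the macrophage libraries. Rac3 reached no more than 0.39 TPM there. The estimated reads of Rac2 were not whole numbers in any macrophage library, so a portion of them was apportioned by the authors' counting, while those of the other 5 genes were whole.

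By TPM the order in the macrophage libraries was Cyba, Rac2, Ncf4, Rac1, Cybb and Ncf1, and no neighbours in that order overlapped across the 3 libraries. The smallest step, from Cybb to Ncf1, was 1.49-fold. Without the correction for length, Rac1 stood above Ncf4. The macrophage libraries were not equal for every gene beyond counting error. Rac2 had a chi-square of 19.6 to 214 between pairs of libraries and Cyba one of 4.05 to 34.5, each on 1 degree of freedom, whereas the other 4 genes stayed at or below 2.48. Library 1 was the lowest for both Rac2 and Cyba.

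**Figure D1:**
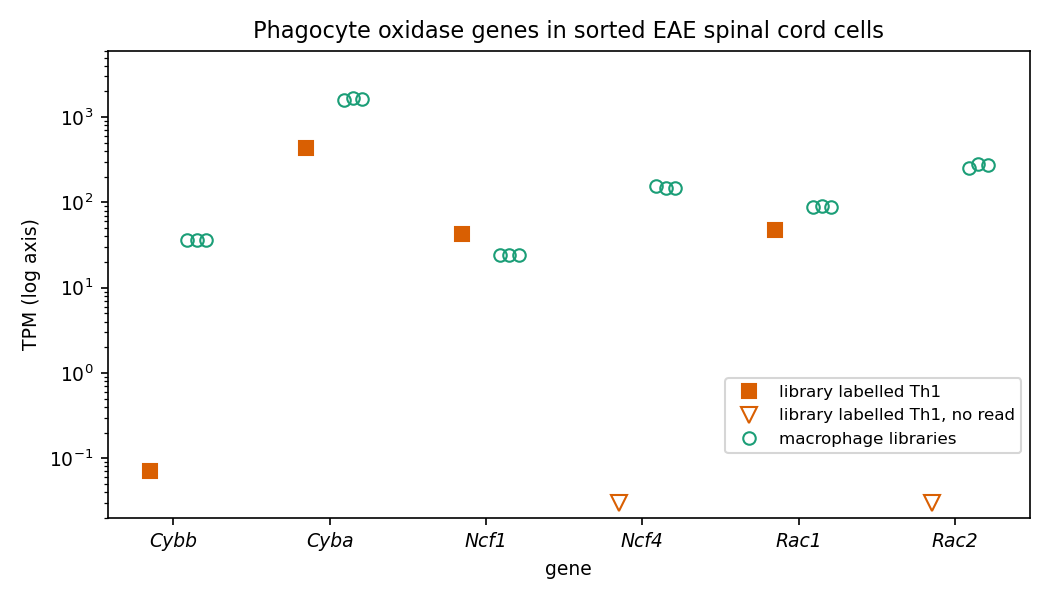
TPM (log axis) of the 6 oxidase genes in the library labelled Th1 (squares, or open triangles where no read was counted) and the 3 macrophage libraries (circles). Macrophage values of a gene lie almost on top of each other, Cybb falls to 0.07 TPM in the library labelled Th1, Ncf4 and Rac2 have no read there, and Ncf1 is the only one of the 6 with a higher TPM in the library labelled Th1.

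In the library labelled Th1 the same 6 genes fell into 3 with at least 325 reads and 3 with at most 1. Cyba stood at 433.10 TPM from 864 reads, Rac1 at 47.38 TPM from 325 reads and Ncf1 at 42.33 TPM from 352 reads. Cybb had 1 read, at 0.07 TPM, and Ncf4 and Rac2 had none. A count of 0 allows a level of up to 0.983 CPM (reads scaled to the library total) in this library at a floor of 3 reads, and that floor covers counting error only. The 6 genes together summed to 522.88 TPM in the library labelled Th1 and to 2141.58 to 2232.68 TPM in the macrophage libraries, with Cyba supplying 82.8% in the library labelled Th1 and 74.1% in the macrophage libraries.

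Detection in this library was poor for genes in general, and the member counts are read against that. Of 1505 genes with at least 20 TPM in the macrophage libraries, 652 (43.3%) had at most 3 reads in the library labelled Th1, as did 3 of the 6 oxidase genes. It had 6550 genes with a read, of which 3726 had 1 to 3. The absence of reads from Rac2, a gene that T cells are known to use, stands beside the absent T cell markers, and their part in this result was not tested.

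Ratios between genes within a library do not depend on how libraries are scaled. Cyba over Rac1 was 9.14 by TPM in the library labelled Th1 (95% interval 8.04 to 10.4, exact binomial on reads, counting error only), against 18.2 ± 0.343 (SD, n = 3) in the macrophage libraries. Ncf1 over Rac1 was 0.893 in the library labelled Th1 (interval 0.766 to 1.04), against 0.271 ± 0.00297 (SD, n = 3) in the macrophage libraries. Relative to Rac1, Cyba was therefore lower and Ncf1 higher in the library labelled Th1, by more than counting error and more than the spread of the macrophage libraries, although a single library has no spread of its own.

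The same comparison was made across genes with edgeR's quasi-likelihood test and Benjamini-Hochberg adjustment, and a gene was called where the adjusted p was under 0.05 and the change 4-fold or more. The lone library was assumed to vary as the macrophage libraries do. Of 11447 genes tested, 6245 were called lower in the library labelled Th1 (54.6%) and 1567 higher (13.7%). With DESeq2 size factors 3440 were called lower and 2009 higher, and with library totals 8165 lower and 1098 higher. Of the 6 oxidase genes, 3 were called lower (Cybb, Ncf4 and Rac2) and 0 higher. In edgeR with TMM factors, Ncf1 alone of the 6 had a positive log2 fold change, at 1.43. With DESeq2 size factors in edgeR, Cyba (0.37), Ncf1 (2.95) and Rac1 (1.24) were positive, and with library totals no member was. The share of members called lower is close to that of all genes. Cybb fell 350-fold (interval 62.8 to 13825, counting error only; edgeR log2 fold change -8.44, adjusted p 2.95e-17), and by 122-fold with DESeq2 size factors and 987-fold with library totals. Against the floor of 3 reads, Ncf4 was at least 41.5-fold lower (edgeR adjusted p 4.22e-17) and Rac2 at least 189-fold lower (edgeR adjusted p 7.43e-21) in the library labelled Th1, the smallest bounds over 3 scalings. These calls held under every scaling and filter run, in edgeR and in DESeq2, and without each macrophage library.

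Directions for the other 3 genes depended on the scaling and are not called. With TMM factors the log2 fold changes were -1.15 for Cyba, 1.43 for Ncf1 and -0.28 for Rac1. With DESeq2 size factors they were 0.37 for Cyba, 2.95 for Ncf1 and 1.24 for Rac1, and with library totals Ncf1 stood at -0.062. The median over all genes was -5.61 with TMM, -4.32 with DESeq2 factors and -6.25 with library totals. With the 5438 genes that have no read in the library labelled Th1 held at their 3-read bound, the median over all genes was -0.95. The bound of an unread gene follows from its macrophage level, the floor and the scaling. Medians at the bound therefore partly reflect how high a list stands in the macrophage libraries. The median over the 6 oxidase genes was -4.79 as fitted and -4.02 with Ncf4 and Rac2 at that bound.

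Beyond the 6 genes, 2 relatives were called higher in the library labelled Th1, Cybc1 and Rap1a. Cybc1, the chaperone that gp91phox needs to reach the membrane in human and mouse phagocytes, stood at 360.51 TPM in the library labelled Th1 and at 6.03, 6.07 and 6.35 TPM in the macrophage libraries (mean 6.15 ± 0.174, SD, n = 3). Its edgeR log2 fold change was 6.58 at an adjusted p of 1.93e-29, and it was higher under each scaling run. Rap1a, a small GTPase that copurifies with the membrane heterodimer, was at 138.03 TPM in the library labelled Th1 and 23.5 ± 0.992 TPM in the macrophage libraries (SD, n = 3), with an edgeR adjusted p of 2.81e-21. Its log2 fold change was 3.13 with TMM, and it missed the 4-fold minimum at 1.63 with library totals and at 1.19 without the 10 most abundant genes. The proton channel gene Hvcn1 had 0.13 TPM from 1 read in the library labelled Th1 and 1.37 ± 0.0808 TPM in the macrophage libraries (SD, n = 3), and was called lower (edgeR adjusted p 0.00717), a call lost with DESeq2 size factors (edgeR adjusted p 0.37). Of 15 relatives, 6 had reads enough to be tested, with 2 called higher and 1 lower. Their median log2 fold change was -1.83 (2.08 with unread genes at their bound). The unread genes, Rac3 and Sh3pxd2a, had means of only 0.323 and 0.0367 TPM in the macrophage libraries. The value of 2.08 is therefore set by the 3-read floor and gives no direction. Over all genes tested 13.7% were called higher and 54.6% lower, with a median of -5.61 (-0.95 at the bound). No read was counted in any of the 4 libraries for Nox1, Nox3, Noxa1, Duox1, Duox2 or Duoxa2, and Nox4 had 1 read, in the library labelled Th1.

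Of 29 genes tested that act ahead of the oxidase (receptors, kinases, Rac exchange factors and Rac inhibitors), 26 were called lower and 2 higher, with a median log2 fold change of -5.46 (-4.18 with unread genes at their bound), against 54.6% called lower and a median of -5.61 (-0.95 at the bound) over all genes tested. With DESeq2 size factors 21 were called lower and in the DESeq2 test 19. Arhgdib, an inhibitor that holds Rac in the cytosol of blood cells, had 8.87 TPM in the library labelled Th1 and 1108 ± 19.2 TPM in the macrophage libraries (SD, n = 3). Fpr1, the receptor for formylated bacterial peptides, had no read in the library labelled Th1 and 77.6 ± 1.35 TPM in the macrophage libraries, and the related inhibitor gene Arhgdia had 0.54 TPM in the library labelled Th1 and 74.0 ± 4.49 TPM in the macrophage libraries (both SD, n = 3). The genes called higher were Prex1, a Rac exchange factor, with 71.58 TPM in the library labelled Th1 and 1.79 ± 0.0551 TPM in the macrophage libraries, and the kinase gene Syk with 30.37 TPM in the library labelled Th1 and 6.75 ± 0.0839 TPM in the macrophage libraries (both SD, n = 3). Syk missed the 4-fold minimum with library totals, at a log2 fold change of 1.20, and without the 10 most abundant genes, at 0.76, whereas Prex1 was called under each scaling run. Both were named after their values were seen.

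Of 21 genes whose products use or remove superoxide and hydrogen peroxide, 4 were called higher in the library labelled Th1 and 9 lower. Their median log2 fold change was -1.26 (-1.24 with unread genes at their bound). Over all genes tested 13.7% were called higher and 54.6% lower, with a median of -5.61 (-0.95 at the bound). With DESeq2 size factors 6 of the 21 were called higher and 5 lower at a median of 0.26. With library totals 2 were higher and 11 lower at a median of -2.75. Without the 10 most abundant genes 1 was higher and 13 lower at a median of -3.19, so the list had no direction that held across scalings. Gpx1, a glutathione peroxidase, was the most abundant in the macrophage libraries and had 3.43 TPM in the library labelled Th1 against 4060 ± 73.1 TPM in the macrophage libraries (SD, n = 3). Txn1, which encodes thioredoxin, had 1671.78 TPM in the library labelled Th1 and 1096 ± 5.32 TPM in the macrophage libraries, and Prdx5, a peroxiredoxin, 465.74 TPM in the library labelled Th1 and 807 ± 27.3 TPM in the macrophage libraries (both SD, n = 3). The 4 called higher were Prdx1, Prdx3, Slc7a11 and Sod2, also named after their values were seen. Of these 4, Prdx1 was called under each scaling run, whereas Sod2, at a log2 fold change of 1.89, missed the 4-fold minimum without the 10 most abundant genes and Prdx3 and Slc7a11 missed it there and with library totals. Sod2, the mitochondrial superoxide dismutase, had 112.27 TPM in the library labelled Th1 and 12.1 ± 0.171 TPM in the macrophage libraries (SD, n = 3).

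**Figure D2:**
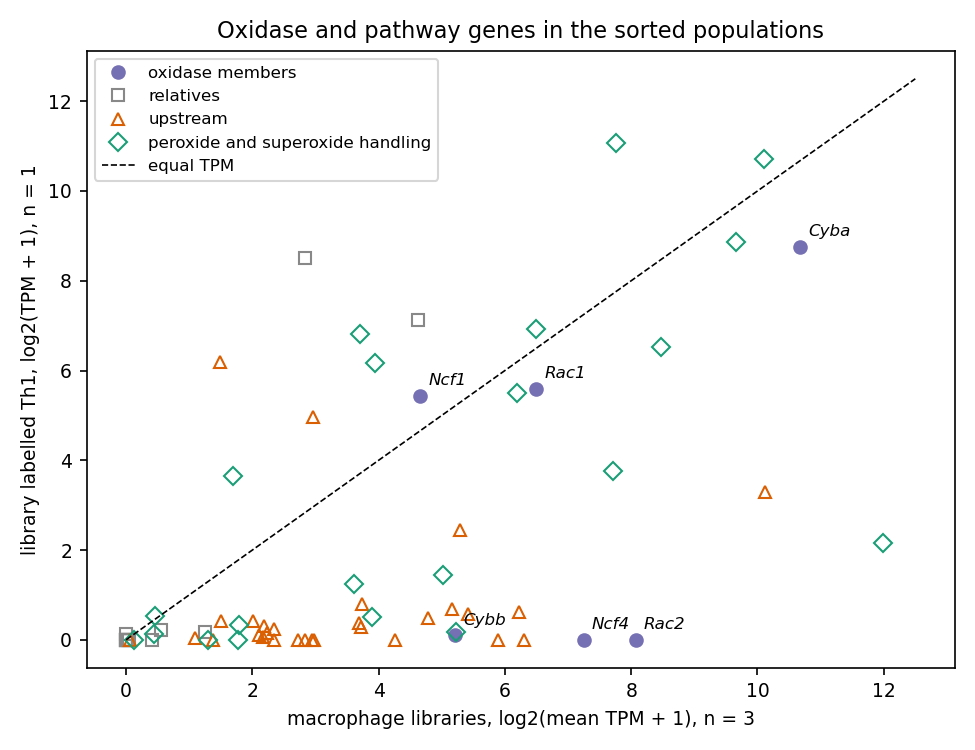
Each symbol is a gene of the oxidase or of a related list, with log2(TPM + 1) in the library labelled Th1 (n = 1) on the vertical axis and log2 of the mean TPM + 1 over the 3 macrophage libraries on the horizontal axis. The dashed line marks equal TPM; Cybb, Ncf4 and Rac2 lie near 0 on the vertical axis, Cyba and Rac1 below the line and Ncf1 above it.

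The OPC cultures answered a separate question, whether oxidase transcripts differ when Apc, a brake on Wnt signalling, is deleted. They come as the authors' deposited table, a single comparison without library values, which leaves depth and spread of single libraries unknown. Since the table names no numerator, Apc-deleted over wild type was taken as the direction in which the Wnt feedback targets Axin2, Lef1, Notum and Sp5 are higher, so the direction of these 4 genes is no result. Apc itself had a log2 fold change of -0.14 (SE 0.13, adjusted p 1) in the authors' deposited table, a gene-level value in which a floxed stretch cannot be seen apart. By mean normalized counts in the authors' deposited table, 7 neuron markers summed to 288011 and 8 OPC and oligodendrocyte lineage markers to 29040. Among them, the neuronal gene Tubb3 had 122255 and the OPC gene Pdgfra 2251. These counts are not corrected for length.

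Cybb was the only one of the 6 genes called in the authors' deposited table, with a log2 fold change of 1.32 (SE 0.36, adjusted p 0.0499). With the mean of 100.6 normalized counts, that fold implies 143.5 in Apc-deleted and 57.7 in wild-type cultures in the authors' deposited table. With adjusted p under 0.05, the authors' deposited table calls 106 of 19333 genes (0.548%), 76 of them higher in Apc-deleted cultures (0.393%) and 30 lower. Cybb was the last of those 106 by p, the next gene having an adjusted p of 0.0518, and 47th of the 76 by fold. Its SE was 1.55 times the median SE of genes with a similar mean in the authors' deposited table. When p was adjusted over the 15897 genes with a mean of at least 10 normalized counts, the adjusted p for Cybb was 0.0404.

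The other genes were not called in the authors' deposited table. Cyba had a log2 fold change of 0.88 (SE 0.29, unadjusted p 0.00252, adjusted p 0.27), with implied means of 193 in Apc-deleted and 105 in wild-type cultures. Ncf1 had 0.75 (SE 0.44), Rac2 0.68 (SE 0.57) and Ncf4 1.76 (SE 1.01) in the authors' deposited table, and the adjusted p was 1 for each. The implied means of Ncf4 were 8.60 normalized counts in Apc-deleted and 2.54 in wild-type cultures, so its fold comes from a low level. Rac1, which most cell types express, had -0.038 (SE 0.15), with implied means of 480 in Apc-deleted and 493 in wild-type cultures. Of the 6 genes, 5 had a positive log2 fold change in the authors' deposited table, 2 an unadjusted p under 0.05, and their median was 0.81, while over all genes 50.3% were above 0, 3.63% had an unadjusted p under 0.05 and the median was 0.0014. Cybb is counted in each of these member values, and its value was known when the members were chosen. They therefore do not test a change of the set.

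**Figure D3:**
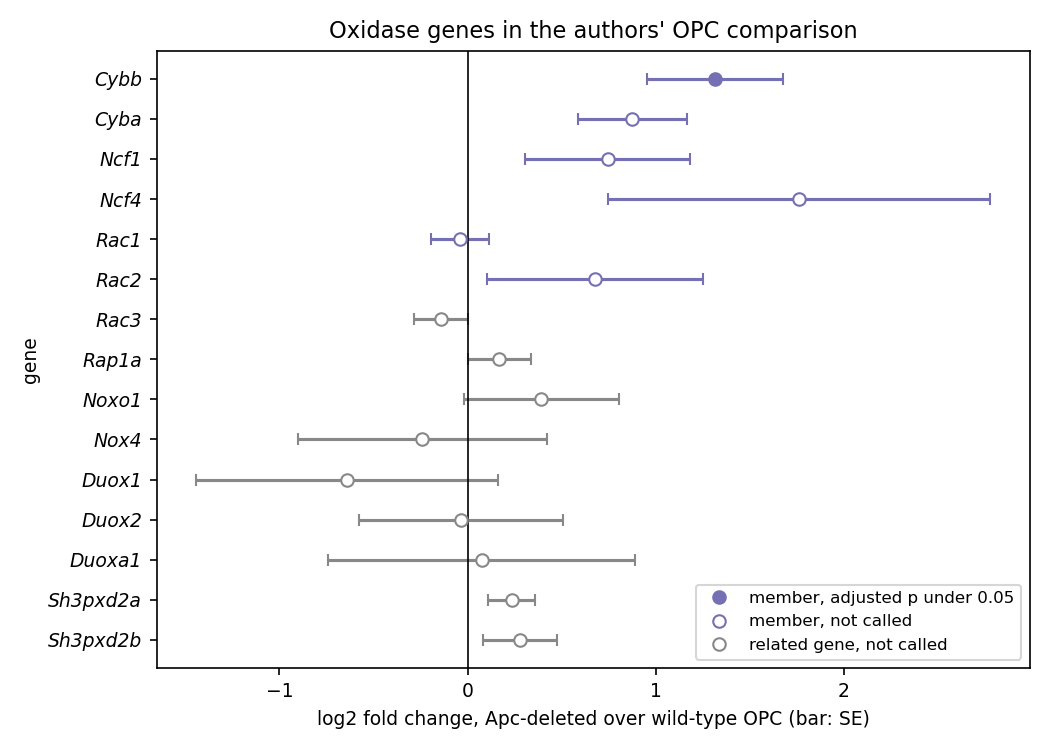
Log2 fold change with its SE (bar), Apc-deleted over wild-type OPC cultures, from the authors' deposited table, for the 6 oxidase genes (purple) and 9 related genes (grey). Cybb is the only filled symbol (adjusted p under 0.05); Rac1 lies at -0.038, and the bars of Ncf4, Rac2 and Duox1 are wide.

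Per kilobase of annotated exon, the mean in the authors' deposited table was 143 normalized counts for Cyba, 108 for Rac1, 17.3 for Cybb, 13.2 for Ncf1, 7.15 for Rac2 and 2.76 for Ncf4. Rac3, the GTPase known from neurons, had 383 on the same scale, far above Rac2, whereas Rac3 was nearly absent from the macrophage libraries. Rac1 and Cyba thus led in the cultures, and Rac2 and Ncf4, which followed Cyba in the macrophage libraries, were the lowest of the 6. This is an order within each data set, and the scales of the data sets were not compared.

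The DNA just before the Cybb and Cyba starts is shown because Cybb alone was called among the 6 genes and Cyba encodes its partner. The sequences are from RefSeq on GRCm38.p6 and run 5′ to 3′ over the 250 bases before the start, both on the minus strand. Capitals mark 2 motifs, TGANTCA and CCAAT, which were picked for display after the sequences were seen. TGANTCA is a loose form of the core bound by AP-1, with any base allowed in its middle, and the match in Cybb has A there. Whether AP-1 binds that match was not tested.
Cybb, chrX:9469325-9469574: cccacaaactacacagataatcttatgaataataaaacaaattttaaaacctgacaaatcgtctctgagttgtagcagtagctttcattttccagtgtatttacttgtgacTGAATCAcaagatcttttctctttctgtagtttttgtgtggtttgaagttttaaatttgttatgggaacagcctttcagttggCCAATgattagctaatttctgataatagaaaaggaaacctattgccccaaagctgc
Cyba, chr8:122432941-122433190: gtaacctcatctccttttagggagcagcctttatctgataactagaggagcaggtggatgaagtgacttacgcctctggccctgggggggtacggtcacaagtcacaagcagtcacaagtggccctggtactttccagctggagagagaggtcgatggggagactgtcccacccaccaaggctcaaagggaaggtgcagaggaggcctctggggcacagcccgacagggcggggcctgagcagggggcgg
In Cybb, TGAATCA lies at bases -139 to -133 and CCAAT at -56 to -52 from the start, and the window is 34.0% G and C. Cyba has neither motif and 60.0% G and C. The TCF/LEF core CTTTGAT, through which Wnt signalling acts on DNA, occurs in neither window, nor in that of Ncf1. The same holds for GAGGAA, a PU.1-type form of the ETS core. These were searched on both strands like the others and as exact matches, so shorter or variant sites were not counted. Of 32851 mouse promoter windows of the same length, 3.21% hold CTTTGAT, 23.3% GAGGAA, 6.75% TGANTCA and 33.8% CCAAT. The RefSeq start used for Cybb lies inside the longer GENCODE M21 gene, which spans bases 9435252 to 9487771 of chromosome X; Cyba spans 122424776 to 122432930 of chromosome 8. The other members are annotated on GRCm38 at chromosome 5, 134220053 to 134229625 (Ncf1), chromosome 15, 78244801 to 78262580 (Ncf4), chromosome 5, 143503634 to 143528036 (Rac1) and chromosome 15, 78559167 to 78572783 (Rac2).

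None of the related lists held a called gene in the authors' deposited table, and their counts below stand beside the 3.63% of all genes with an unadjusted p under 0.05. Of the 15 oxidase relatives, 9 were tested, 0 had an unadjusted p under 0.05 and the median log2 fold change was 0.075. Of the 29 upstream genes, 27 were tested, 4 had an unadjusted p under 0.05 and the median was 0.12. The values of those 4 in the authors' deposited table were 3.30 for the integrin gene Itgb2 (SE 0.98, adjusted p 0.114), 1.64 for the beta-glucan receptor gene Clec7a (SE 0.78, adjusted p 1), 0.80 for the Rac exchange factor gene Vav1 (SE 0.33, adjusted p 0.846) and 0.59 for Syk (SE 0.21, adjusted p 0.397). They were named after their values were seen. The means of Itgb2 (8.19 normalized counts) and Clec7a (7.72) were below 10, so their folds come from a low level. Of the 21 genes that handle superoxide and peroxide, 20 were tested, 1 had an unadjusted p under 0.05 and the median was 0.069; that gene was Prdx1 at 0.59 (SE 0.27, adjusted p 1) in the authors' deposited table. The genes most abundant in the macrophage libraries, Gpx1, Txn1 and Prdx5, had 0.20, 0.10 and -0.0010 there, with SEs of 0.20, 0.26 and 0.12, and Rap1a, Arhgdib and Arhgdia had 0.17, 0.27 and 0.065, with SEs of 0.17, 0.20 and 0.11.

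Markers of myeloid cells were counted beside Cybb. Of 15 macrophage and monocyte markers, 12 were tested in the authors' deposited table, and 11 had a positive log2 fold change. An unadjusted p under 0.05 was reached by 6 of the 12, against 3.63% of all genes. Of the 12, 2 were called, Lyz2 at 4.33 (SE 0.96) and Cd68 at 1.54 (SE 0.36), and the list median was 0.33. The implied means of the 12 markers summed to 3988 normalized counts in Apc-deleted and 2112 in wild-type cultures, and without Lyz2, a choice made after seeing the data, to 2420 in Apc-deleted and 2034 in wild-type cultures in the authors' deposited table. The receptor genes Csf1r and Mertk had 0.0096 and 0.0015 there, below the list median of 0.33. They are 2 picked from the 12 and do not stand for the list. Of 10 microglia markers, 0 were called, 4 had an unadjusted p under 0.05, the median was 0.054, and the implied sums were 3455 in Apc-deleted and 2885 in wild-type cultures. Of 13 neutrophil markers, 10 were tested, all had a negative value, 0 had an unadjusted p under 0.05, and the implied sums were 552 in Apc-deleted and 626 in wild-type cultures. The part of myeloid cells in the Cybb value was not tested.

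**Figure D4:**
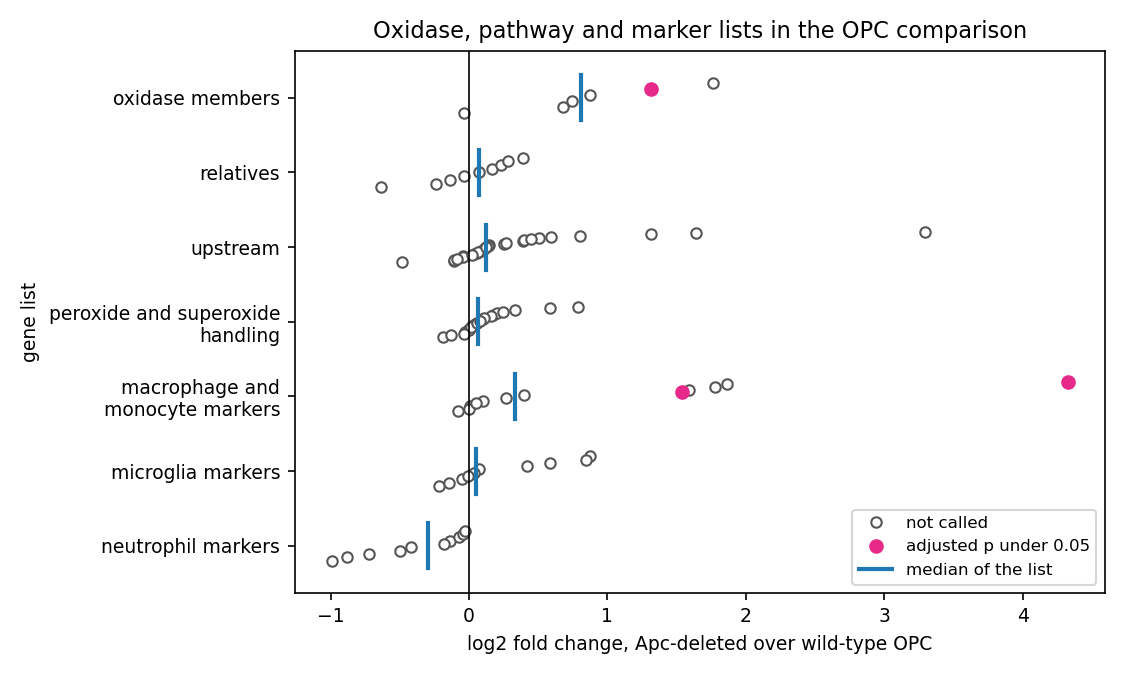
Log2 fold changes, Apc-deleted over wild-type OPC cultures, from the authors' deposited table, 1 point per gene, for the oxidase genes, 3 related lists and 3 marker lists; filled points have an adjusted p under 0.05 and vertical bars mark list medians. The oxidase genes have a median of 0.81 and the related lists 0.075, 0.12 and 0.069; the called macrophage and monocyte markers are Lyz2 and Cd68.

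The genes whose pattern was most like that of Cybb were sought over 3 coordinates, its log2(TPM + 1) in the macrophage libraries, its log2(TPM + 1) in the library labelled Th1 and its log2 fold change in OPC cultures. Among 14620 genes listed in all tables the 5 nearest by Euclidean distance were Tnfaip2 (0.251), Cd300lf (0.357), Clec4a1 (0.479), Hcls1 (0.581) and Igsf6 (0.594). Tnfaip2, a gene induced by tumour necrosis factor, had 0.18 TPM in the library labelled Th1 and 31.8 ± 0.720 TPM in the macrophage libraries (SD, n = 3), beside a log2 fold change of 1.43 (SE 0.45, adjusted p 0.171) in the authors' deposited table. None of the 5 was called in that table; Cd300lf, an inhibitory receptor of myeloid cells, had the widest SE at 1.02, and Hcls1, a cytoskeletal adaptor of blood cells, the narrowest at 0.32. The coordinates rest on 4 sorted libraries and 1 deposited comparison.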

How the data were processed

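Libraries were prepared from Trizol-extracted RNA and sequenced on an Illumina HiSeq as 150-bp pairs, per the labels' protocols. GRCm38 was used, per the submitters' processing notes; the aligner and counter were not given in the sources used here. For each sorted library the authors deposited TPM and estimated counts per gene, per the file headers. Of the counts that were not blank, zeros included, 79.8 to 85.6% were whole. The macrophage columns carry codes found in no label and were assigned to the group only, as libraries 1 to 3 in file order. For OPCs the authors deposited mean normalized counts (a signal), log2 fold changes, their SEs and test statistics (both scores) and p-values, per the file headers; the tool is not given. A total of 8 further columns were not used.

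Blanks were taken as 0, estimated counts were rounded, and edgeR 4.0.16 was run on R 4.3.3 (TMM, filterByExpr, quasi-likelihood test, Benjamini-Hochberg) and checked on simulated counts. The simulation raised 50 genes and lowered 50 genes 8-fold, did the same at 3-fold, and gave every library the macrophage spread. It therefore could not test the scaling of these data or the spread assumed for the lone library. DESeq2 1.42.0 gave an alternative. Implied OPC means were computed from the deposited mean and fold change, taking group sizes as equal. Exon lengths and positions come from GENCODE M21, and promoters from RefSeq, which matched 3 of the 6 genes. Intervals are at 95%. Tables and plots used matplotlib 3.10.9, pandas 2.3.3, scipy 1.17.1 and numpy 2.4.6 on Python 3.11.15. Named genes are the 6 members, called genes and the 3 genes highest in macrophages of each related list, and the 5 genes nearest to Cybb; others are marked as named after their values were seen. The members and lists were chosen with earlier results of these data known, the OPC value of Cybb among them. Alternatives covered scaling, filters, thresholds, the test, the length correction and leaving out each macrophage library. 1 item of the related lists is not reported here.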

Additional observations from a re-analysis of the deposited data

How the results depend on the processing

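Of 154 recomputed values, 117 were scored as unchanged. Single values kept direction and side of the threshold, or moved by less than the replicate spread or the counting interval. Counts of genes were scored as unchanged within a set factor. Ratios within a library cannot move when TPM is rescaled, and a call cannot be lost at a looser threshold, so such values add no support. In the OPC table Cybb stayed the only oxidase gene called when p was adjusted over genes with a mean of at least 10 (0.0404), when p was adjusted again over all listed genes (0.0492, chosen after seeing the data) and at an adjusted p under 0.1. Between the library labelled Th1 and the macrophage libraries, 5 of the 6 genes were called lower without the 10 most abundant genes in the library totals, and 5 with no minimum fold; 1 was called higher with DESeq2 size factors, in the DESeq2 test and with no minimum fold. The log2 fold change of Cyba turned to 0.37 with DESeq2 size factors and to 0.37 in the DESeq2 test, that of Rac1 to 1.24 in both, and that of Ncf1 to -0.062 with library totals and -0.50 without the 10 most abundant genes; the scaling factor alone separates these values from those in the text. Genes called lower numbered 6245 in edgeR with TMM, 3440 with DESeq2 size factors, 8165 with library totals and 8570 without the 10 most abundant genes, and genes called higher 1567, 2009, 1098 and 974; the DESeq2 test, on the same size factors as the second of these, called 2488 lower and 1929 higher. The macrophage and monocyte marker sum in OPC cultures, Apc-deleted over wild type, was 1.89 with Lyz2 and 1.19 without it (chosen after seeing the data). Without each macrophage library in turn, 3 members were called lower and 0 higher each time, and the TPM ratios were 44.8 to 45.7 for Cyba over Cybb, 6.16 to 6.28 for Ncf4 over Ncf1 and 2.93 to 3.08 for Rac2 over Rac1. By CPM in place of TPM, which leaves transcript length in, Cyba over Cybb was 5.46, Ncf4 over Ncf1 2.74 and Rac2 over Rac1 4.11 in the macrophage libraries, and Cyba over Rac1 was 2.66 and Ncf1 over Rac1 1.08 in the library labelled Th1. No paired analysis was possible because the OPC table holds no value per library and the sorted groups share fewer than 2 replicate numbers. Limits: 1 library stands for Th1 and its depth is far below that of the macrophage libraries, so an absent read there bounds a level and does not show absence; the OPC depths are unknown.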
